A study of Mus musculus with 19 samples.

Results

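The change in RNA between 12 h and 96 h of culture was measured in hepatic stellate cells (HSCs), the pericytes of the liver, taken from Balb/c mice that were male, untreated and 23 to 24 weeks old. The comparison comprises the 3 samples whose labels give a culture time of 96 h and the 3 whose labels give 12 h, 6 of the 19 samples in the series. Cells had been sorted on the ultraviolet fluorescence of stored vitamin A, plated on collagen and kept in Dulbecco's modified Eagle's medium with 10% fetal bovine serum, which was renewed at 3 h and 24 h. No fibrogenic agent was given to either group, so that cells of both groups shared the sort, the plastic and the serum and differed in culture time, and the 96 h cells had received 1 more medium change. Each group holds 1 sample of each of the numbers M1, M2 and M3, where M1 and M3 share an isolation date and M2 has another, and every sample merges 2 technical repeats. RNASeq with 3′ tags was deposited as raw counts per gene. Levels are given as counts brought to a common library total (CPM) and scaled by TMM over the 6 samples, and triplets of values are listed in the order M1, M2, M3. Cultured cells had no liver around them, and bulk RNA does not separate a smaller number of cells of a kind from less RNA per cell.

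In the healthy liver, HSCs are quiescent pericytes of the sinusoids, rich in lipid droplets that hold most of the body's vitamin A. Upon injury or plating they pass through initiation, an early phase of stress, inflammatory and growth factor signalling, and then perpetuation, in which they become contractile myofibroblasts that deposit and remodel fibrillar collagen and divide. Plated HSCs go through these phases without an added stimulus, and cultures of a few days are widely used as a model of the myofibroblast.

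Of 10934 genes tested, 2368 (21.7%) were called, where a call needed a more than 2-fold difference and passed a threshold of 0.1 on the Benjamini-Hochberg adjusted p of edgeR's quasi-likelihood test. Higher levels at 96 h were found for 1301 genes (11.9%) and lower levels for 1067 (9.76%). Entering M1, M2 and M3 in the model as a block left 1552 calls (14.2%), 797 of them for higher (7.29%) and 755 for lower levels (6.91%). Both models called 1521 genes, every one of them in the same direction. Changes were large: 1308 of the called genes differed more than 4-fold. Called genes with higher levels took 5.17% of all CPM at 12 h and 21.1% at 96 h, whereas those with lower levels took 31.6% at 12 h and 8.11% at 96 h. The samples of the groups did not overlap for 4883 of the genes tested (44.7%), of which 2727 (24.9%) lay higher and 2156 (19.7%) lower at 96 h, and for 2359 of the called genes.

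**Figure D1:**
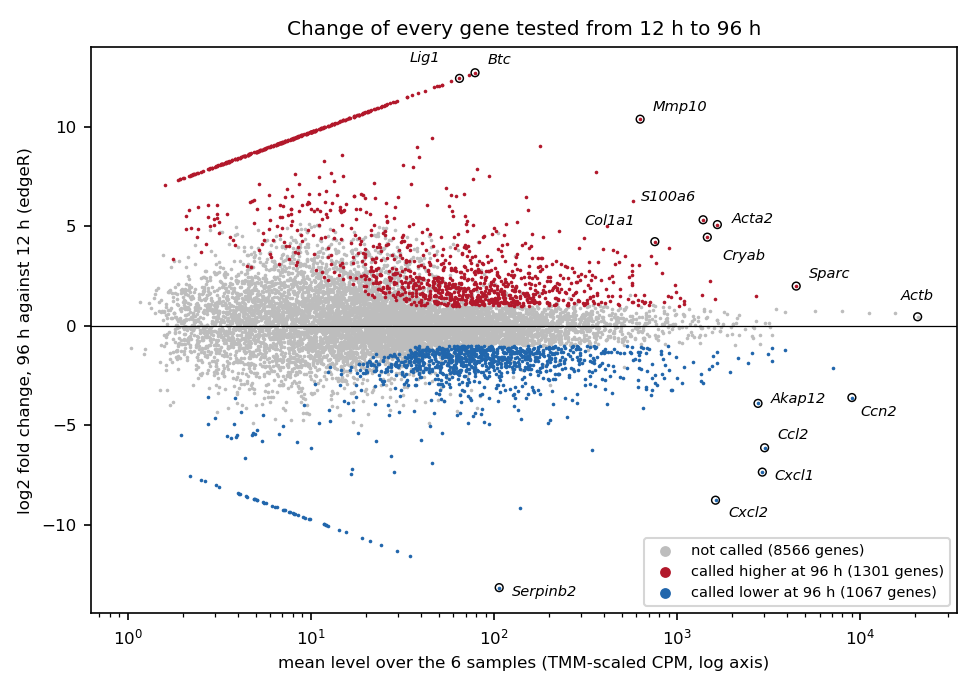
Log2 fold change from 12 h to 96 h (edgeR) against the mean level over the 6 samples (TMM-scaled CPM, log axis) for 10934 genes, with called genes in colour and selected genes circled. Acta2, Col1a1, Mmp10, Cryab and S100a6 lie high on the side of 96 h and Ccn2, Ccl2, Cxcl1 and Cxcl2 far down on the side of 12 h; the straight bands at the upper and lower left are genes without a count in 1 of the groups, whose fitted fold change depends on the prior count.

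By fitted fold change, the first 10 of the genes that rose, among those of at least 20 CPM on average, had no count in any 12 h sample. Their fitted values depend on the prior count of the model, so that no order is drawn from them. Btc, the epidermal growth factor receptor ligand betacellulin, reached 175, 159 and 140.2 CPM. Set against a limit of 3 counts over the 12 h group, this was 918-fold higher. Such a ratio is not a lower bound on the change, since a 0 also stood beside high counts within a group. Adamtsl2, for example, had 172, 0 and 335 counts at 12 h. Prss35, a serine protease-like protein, reached 152, 88.8 and 196 CPM (849-fold above the limit). Igfbp5, an insulin-like growth factor binding protein, reached 162, 20.7 and 167 CPM, so that M2 stood far below the other samples of its group. The others were the DNA ligase gene Lig1, the mitotic kinase gene Cdk1, the calcium-binding S100a4, and Plp2, Gprc5b, Pianp and Tmem63b. They lay between 486-fold and 755-fold above the limit. At the other end stood Serpinb2, which encodes plasminogen activator inhibitor type 2, with 139, 210.1 and 293 CPM at 12 h but none at 96 h. Its 12 h level was 1040-fold above a limit of 3 counts over the 96 h group. Podxl, Angptl6, Nr4a2 and Egr2 likewise had no count in any 96 h sample, with ratios to that limit between 204-fold and 339-fold. The stress transcription factor gene Atf3, the chemokine genes Cxcl1 and Cxcl2, Kctd15 and the cystine transporter gene Slc7a11 completed the first 10 decreases by fitted fold change.

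Totals were 4286832 to 7690892 counts at 12 h and 3389083 to 5906370 at 96 h, so that 3 counts correspond to 0.39 to 0.885 CPM. Across genes, which are not independent of each other, log2 CPM correlated with r of 0.761 to 0.846 within groups and 0.541 to 0.62 between them. Mitochondrially encoded genes took 3.67 to 4.33% of counts at 12 h and 5.54 to 6.09% at 96 h. Kupffer cell and leukocyte markers were absent for 15 of 20 genes, including Ptprc, Adgre1 and Clec4f, with sums of 37.8 to 44.7 CPM at 12 h and 23.2 to 47.4 CPM at 96 h. No count was found for 9 of 10 cholangiocyte and 9 of 12 portal fibroblast and mesothelial markers. Hepatocyte markers summed to 132 to 216 CPM at 12 h and 44.4 to 131 CPM at 96 h. Of the sinusoidal endothelial markers, Ehd3 was called higher at 96 h (363, 189 and 216 CPM at 12 h and 875, 549.8 and 726 CPM at 96 h; log2 fold change 1.49, adjusted p = 0.0163), and the remaining 14 summed to 1020, 239 and 232 CPM at 12 h and 340, 47.8 and 42.9 CPM at 96 h. Of these, Lyve1, a hyaluronan receptor of the sinusoids, was called lower (34.7, 3.97 and 10.1 CPM at 12 h and 0, 0 and 0 CPM at 96 h; adjusted p = 0.0277), but not with the block (adjusted p = 0.14). By these sums M1 held the most endothelial RNA in each group. Without the 12 h sample of M1 2553 genes were called and without its 96 h sample 1900, and the part of endothelial RNA in the changes below was not tested.

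An exact 0 was frequent in these libraries. Of the called genes with higher levels, 298 had no count in any 12 h sample, and 47 of those with lower levels had none in any 96 h sample. The 298 genes were also low at the neighbouring times, with a median level of 0.384 CPM at 6 h, 0.184 CPM at 18 h and 2.58 CPM at 24 h against 15.2 CPM at 96 h, and a count was seen for 169 of them at 6 h and 155 at 18 h. Before culture, 178 of these genes had a count.

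Mean levels at the other culture times, scaled by TMM over all 19 samples, showed where the 12 h and 96 h values lie in the course of activation. Genes with lower levels at 96 h had risen from a median of 41.7 CPM at 0 h to 69.1 CPM at 3 h, 103 CPM at 6 h and 119 CPM at 12 h, and then declined through 86.4 CPM at 18 h and 64.3 CPM at 24 h to 33.9 CPM at 96 h. Genes with higher levels at 96 h had declined from 42.0 CPM at 0 h to 12.0 CPM at 12 h and stood at 28.1 CPM at 24 h and 70.0 CPM at 96 h. The median over all genes tested stayed between 24.8 and 28.5 CPM. Of the genes lower at 96 h, 702 (65.8%) were at 12 h more than 2-fold above their 0 h level, and at 96 h 535 (50.1%) lay within 2-fold of it, 318 (29.8%) lay below that range and 214 (20.1%) above it. Of the genes higher at 96 h, 804 (61.8%) were at 12 h more than 2-fold below 0 h, and at 96 h 573 (44%) lay within 2-fold of 0 h and 592 (45.5%) above. Because the genes were chosen on the 12 h and 96 h samples, an extreme at 12 h is partly fixed by the choice. Of the genes lower at 96 h, 528 (49.5%) had their highest mean at 12 h, and of those higher at 96 h, 517 (39.7%) had their lowest there. These shares describe means of 2 or 3 samples and were not tested.

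**Figure D2:**
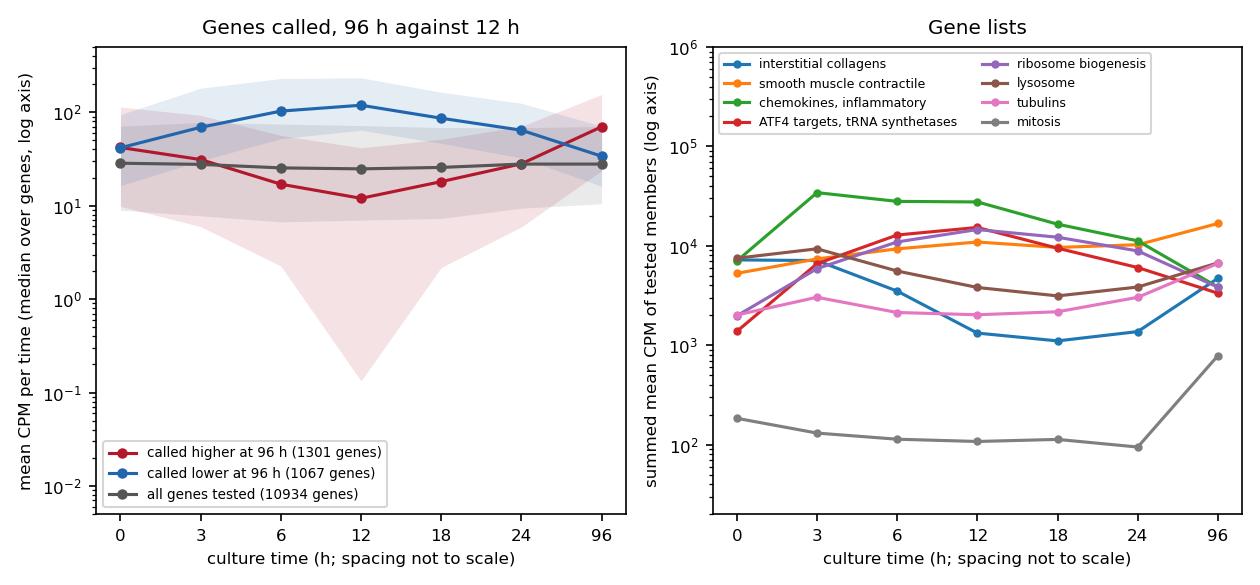
Left, median over genes of the mean CPM at each culture time (log axis; shading, quartiles over genes) for genes called higher or lower at 96 h and for all genes tested; right, summed mean CPM of the tested members of 8 gene lists (log axis). At 12 h the median was 119 CPM for the genes lower at 96 h and 12.0 CPM for the genes higher at 96 h, both chosen on the 12 h and 96 h samples, and the mitosis list was high only at the last time.

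In the gene lists described next, members that were not tested had too few counts, and medians are log2 fold changes over the members tested. Each count of called members is to be set beside the shares of all genes tested, 11.9% higher and 9.76% lower. Except for the lists of cell division and cholesterol synthesis, and apart from the study's own programs, at most 3 tested members of a list had fewer than 10 counts in every sample of a group. The contractile genes of smooth muscle, which give the myofibroblast its tension, had 25 members, of which 22 were tested. At 96 h, 12 were higher and 1 was lower, against 11.9% and 9.76% of all genes tested, and the median was 1.42 against 0.099 over all genes. Acta2, which encodes α-smooth muscle actin and lies on chromosome 19 from 34241090 to 34255590 (GRCm38), was at 84.8, 79.6 and 121 CPM at 12 h and 3316, 2296 and 4063 CPM at 96 h. Even the lowest 96 h sample lay far above the highest 12 h sample, and the log2 fold change was 5.08 (SE 0.31, adjusted p = 0.000351). The regulatory light chain gene Myl9 stood at 26.8, 22.8 and 25.7 CPM at 12 h and 767, 793 and 852 CPM at 96 h, with little spread in either group (log2 fold change 5.00, adjusted p = 7.54e-05). Mylk, the kinase of that light chain, went from 126, 148 and 129 CPM to 1296, 982 and 1047 CPM (log2 fold change 3.05, adjusted p = 0.000344). The groups were again far apart. The tropomyosin genes Tpm1 (log2 fold change 1.37, adjusted p = 0.0027) and Tpm2 (log2 fold change 3.58, adjusted p = 0.000485) rose, as did the light chain gene Myl6 (log2 fold change 1.53, adjusted p = 0.0027). So did Cnn1, calponin (log2 fold change 2.65, adjusted p = 0.00737), and Des, the intermediate filament desmin (log2 fold change 1.67, adjusted p = 0.0173).

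The change did not extend to every contractile gene. Tagln, which encodes transgelin, was at 988, 1284 and 1869.8 CPM at 12 h and 1055, 1049 and 951 CPM at 96 h (adjusted p = 0.275). Cald1, caldesmon, was at 3064, 3902 and 4473 CPM at 12 h and 2750.1, 3006 and 2557 CPM at 96 h (adjusted p = 0.129). The groups overlapped for Tagln and came close to each other for Cald1.

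The promoter of Myl9 is shown because this strongly rising contractile gene has a CArG box, the element bound by serum response factor, within 200 bases of its start. These bases upstream of the transcription start lie at chr2:156775264-156775463 on the plus strand (RefSeq, GRCm38.p6), with the element in capitals.
Myl9: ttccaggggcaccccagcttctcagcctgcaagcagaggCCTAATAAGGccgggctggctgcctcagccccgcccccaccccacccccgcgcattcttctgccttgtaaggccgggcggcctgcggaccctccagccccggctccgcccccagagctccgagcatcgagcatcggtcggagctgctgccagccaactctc
CArG boxes were found in 3 of 21 windows (14.3%) of the contractile list, in 1.4% of the windows of all genes tested and in 1.6% of all windows. In the immediate early list, most of whose called members fell, they were in 5 of 25 windows. A window spans 250 bases before to 50 after the start, and both strands were searched. Of all CArG matches, 15.6% overlapped another motif searched. A match is a description of the letters and was not tested for binding.

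Among genes of the cytoskeleton, tubulins rose for 7 and fell for 0 of 11 tested members (of 13), with a median of 2.27. Tuba1a was at 136, 104 and 126 CPM at 12 h and 931, 959 and 1140.0 CPM at 96 h (log2 fold change 3.05, adjusted p = 0.000344). Tubb5 was at 216, 193 and 269 CPM at 12 h and 1643, 1193 and 1462 CPM at 96 h (log2 fold change 2.66, adjusted p = 0.000616). Tuba1c, at 690.4, 468 and 492 CPM at 12 h and 371, 364 and 334 CPM at 96 h, was not called (adjusted p = 0.0605), and all its 96 h samples lay below the 12 h samples. The α-tubulin genes have nearly identical coding sequences, and how shared reads were counted is not given in the sources used here. Of 32 tested focal adhesion and actin regulatory genes, 3 were higher and 4 lower. These shares, 9.4% and 12.5%, were close to the 11.9% and 9.76% of all genes tested. Actb, cytoplasmic β-actin, was at 16709, 15788 and 19644 CPM at 12 h and 22437, 21937 and 27037 CPM at 96 h (adjusted p = 0.117). Cfl1, which encodes the actin-severing cofilin, rose (log2 fold change 1.24, adjusted p = 0.0157), and so did Tmsb10, an actin-sequestering thymosin (log2 fold change 1.68, adjusted p = 0.0044). The adhesion adaptor gene Fermt2 fell (log2 fold change -1.60, adjusted p = 0.00472).

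**Figure D3:**
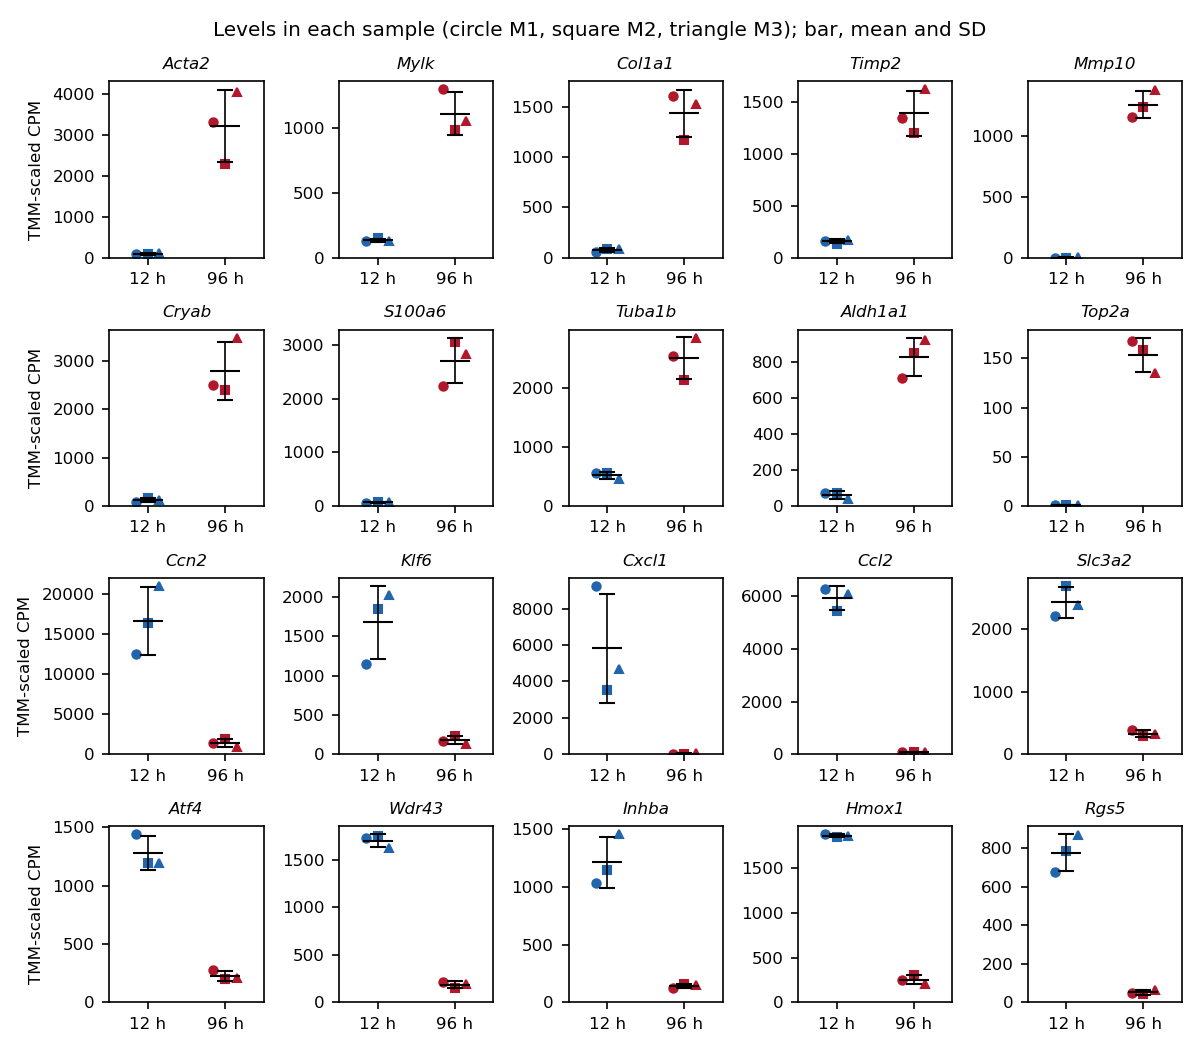
TMM-scaled CPM of 20 genes in each sample at 12 h (blue) and 96 h (red), with circles for M1, squares for M2 and triangles for M3, and bars for the mean and SD of 3 samples. In every panel the groups are separate: Acta2 lies at 79.6 to 121 CPM at 12 h and 2296 to 4063 CPM at 96 h, and Ccl2 at 5424 to 6277 CPM at 12 h and 80.7 to 92.5 CPM at 96 h.

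Interstitial collagens, the fibrillar matrix of scar tissue, were higher at 96 h for 9 and lower for 1 of 13 tested members (of 18), with a median of 2.29. Col1a1, on chromosome 11 from 94936224 to 94953042, was at 53.5, 89.1 and 87.3 CPM at 12 h and 1611, 1169 and 1529 CPM at 96 h. Every 96 h sample lay far above every 12 h sample, with a log2 fold change of 4.23 (SE 0.27, adjusted p = 0.000416). Its partner chain gene Col1a2 stood at 36.1, 51.8 and 101 CPM at 12 h and 529.9, 384 and 499.8 CPM at 96 h (log2 fold change 2.90, adjusted p = 0.00455). Col3a1 was at 161, 175 and 213 CPM at 12 h and 435, 488 and 539.9 CPM at 96 h (log2 fold change 1.41, adjusted p = 0.00293). Neither showed an overlap between the groups. Col8a1, a short-chain collagen, rose as well (log2 fold change 4.38, adjusted p = 0.000826), and so did Col5a2, a chain of the collagen that sets fibril width (log2 fold change 1.25, adjusted p = 0.0277). Without the 12 h sample of M1, Col5a2 narrowly missed the 2-fold minimum. The member that fell was Col14a1, a fibril-associated collagen, at 331, 452 and 536 CPM at 12 h and 139, 129 and 135 CPM at 96 h (log2 fold change -1.71, adjusted p = 0.00293). At the other times the summed level of the list was 7213 CPM at 0 h and 7104 CPM at 3 h, then 1324 CPM at 12 h and 4712 CPM at 96 h. The mean sum at 96 h thus lay below that of freshly isolated cells. For Col1a1 alone it did not, with means of 322 CPM at 0 h, 74.8 CPM at 12 h and 1412 CPM at 96 h.

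Collagen processing enzymes rose for 9 and fell for 0 of 23 tested members (of 26), with a median of 1.33. With the block, 6 were called higher. Pcolce, which enhances the cleavage of procollagen, was at 19.96, 19 and 17.8 CPM at 12 h and 337, 233 and 332 CPM at 96 h (log2 fold change 3.99, adjusted p = 0.000344). Both P4hb (log2 fold change 1.33, adjusted p = 0.0021) and P4ha1 (log2 fold change 1.48, adjusted p = 0.00576), the subunits of prolyl 4-hydroxylase, rose. The collagen crosslinking enzyme gene Lox was at 9.5, 10.2 and 35 CPM at 12 h and 58.9, 109 and 77.8 CPM at 96 h, a log2 fold change of 2.16 (SE 0.61, adjusted p = 0.0505). The 12 h sample of M3 stood above the others of its group, and the call was lost in 6 of 17 alternatives, among them without the 12 h sample of M1 or M2 or the 96 h sample of M2 or M3 (adjusted p up to 0.14). Its relative Loxl2 was at 470.4, 614 and 485 CPM at 12 h and 862, 909.8 and 900.4 CPM at 96 h. This was an increase below the 2-fold minimum (log2 fold change 0.77, adjusted p = 0.0153). Serpinh1, the collagen chaperone, was at 1866, 2501 and 2478 CPM at 12 h and 1573, 1726 and 1796 CPM at 96 h (adjusted p = 0.125).

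Of the basement membrane genes, 4 of 13 tested members (of 24) rose and 0 fell. Without the 96 h sample of M1 or that of M2, 2 were called. Sparc, a collagen-binding matricellular protein gene, was at 1830.3, 1860.5 and 1693 CPM at 12 h and 7439.6, 6587 and 7430.0 CPM at 96 h (log2 fold change 1.99, adjusted p = 0.000485). The perlecan gene Hspg2 rose too (log2 fold change 1.86, adjusted p = 0.0114). Of the collagen IV chains, Col4a5 was called (log2 fold change 5.76, adjusted p = 0.0549), although not with the block (adjusted p = 0.126) and not without any of the 96 h samples (adjusted p up to 0.17), whereas Col4a1 was at 3258, 3646 and 3010.4 CPM at 12 h and 2455, 2411 and 2313 CPM at 96 h (adjusted p = 0.0547).

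Matrix glycoproteins and proteoglycans moved in both directions, with 8 of 25 tested members (of 39) higher and 6 lower. Without the filter on low counts, or without the 12 h sample of M2, 5 members were called higher. Prelp, a leucine-rich proteoglycan, was at 124, 61.8 and 70.0 CPM at 12 h and 604, 454 and 404 CPM at 96 h (log2 fold change 2.51, adjusted p = 0.00359). The elastic fibre gene Emilin1 was at 34.4, 32.3 and 16.9 CPM at 12 h and 332, 184 and 363 CPM at 96 h (log2 fold change 3.40, adjusted p = 0.00255). The matricellular gene Postn was at 64.1, 109 and 141 CPM at 12 h and 249.9, 296 and 280.1 CPM at 96 h (log2 fold change 1.39, adjusted p = 0.0193). Those called lower included Tnc, tenascin C (log2 fold change -1.31, adjusted p = 0.0435), and Ltbp4, which binds latent TGF-β. The call of Tnc was lost in 5 of 17 alternatives, namely without the 12 h sample of M2 or M3 or any of the 96 h samples (adjusted p up to 0.139). Ltbp4 was at 384, 330.2 and 437 CPM at 12 h and 14.4, 16.1 and 8.92 CPM at 96 h (log2 fold change -4.87, adjusted p = 0.000346). Decorin, Dcn, was at 3140.3, 3766 and 4137 CPM at 12 h and 2175, 1975 and 1734 CPM at 96 h, a difference below the 2-fold minimum (adjusted p = 0.0116). Versican, Vcan, was at 15.9, 12.1 and 27.6 CPM at 12 h and 38.6, 21.7 and 30.3 CPM at 96 h. These samples overlapped, and the log2 fold change was 0.70 with a 95% interval of -0.59 to 1.99 (adjusted p = 0.454).

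Among proteases and their inhibitors, 9 of 19 tested members (of 28) rose and 3 fell, with a median of 2.35. Mmp10, the stromelysin-2 gene on chromosome 9 from 7502352 to 7510240, was at 0, 0 and 2.31 CPM at 12 h and 1153, 1239.6 and 1377 CPM at 96 h. Only the sample of M3 held counts at 12 h, while all 96 h samples were high (log2 fold change 10.37 (SE 0.91, adjusted p = 0.000974)). In between, its mean had been 28.4 CPM at 18 h. Stromelysin-1, Mmp3, rose from 55.8, 50.2 and 47.9 CPM to 634, 703 and 883 CPM (log2 fold change 3.85, adjusted p = 0.000279). The inhibitor genes went in different directions. Timp1 was at 32.1, 11.6 and 10.3 CPM at 12 h and 169.6, 171 and 269 CPM at 96 h (log2 fold change 3.51, adjusted p = 0.00566). Timp2 was at 165, 135 and 169 CPM at 12 h and 1341, 1196 and 1618 CPM at 96 h (log2 fold change 3.15, adjusted p = 0.000344). Timp3, the inhibitor that binds to the matrix, fell and was at 3345, 5819 and 6167 CPM at 12 h and 1581, 1586 and 1412 CPM at 96 h (log2 fold change -1.74, adjusted p = 0.00508). Plaur, the urokinase receptor gene, fell as well (log2 fold change -2.32, adjusted p = 0.00434).

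TGF-β is the best known inducer of the myofibroblast. The genes of its pathway were lower at 96 h for 6 and higher for 2 of 24 tested members (of 28), with a median of -0.46. With the block, 5 were lower and 1 was higher. Inhba, which encodes the activin A subunit, was at 1034, 1151 and 1460.3 CPM at 12 h and 122, 157 and 153 CPM at 96 h (log2 fold change -3.08, adjusted p = 0.000425). All 96 h samples lay far below the 12 h samples. The signal transducer gene Smad5 (log2 fold change -1.70, adjusted p = 0.00934) and the ubiquitin ligase gene Smurf2 (log2 fold change -1.32, adjusted p = 0.00567) fell. The co-receptor gene Eng, endoglin, rose (log2 fold change 1.97, adjusted p = 0.00089). The inhibitory Smad6 was called higher as well (log2 fold change 1.35, adjusted p = 0.0937), but not with the block (adjusted p = 0.166). Its call was lost in 9 of 17 alternatives, among them without the 12 h sample of M1 or M2 or any of the 96 h samples (adjusted p up to 0.24).

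In the related BMP pathway, 3 of 12 tested members (of 17) were higher and 2 lower. The ligand gene Bmp2 fell (log2 fold change -3.35, adjusted p = 0.00133), and Bmp6 had no count at 96 h. With the block, Bmp6 was not called (adjusted p = 0.104). The BMP response genes Id1 (log2 fold change 1.69, adjusted p = 0.0483), Id2 (log2 fold change 2.16, adjusted p = 0.0057) and Id3 (log2 fold change 1.09, adjusted p = 0.0215) were called higher. Id1 was not called with the block (adjusted p = 0.147) or without the 12 h sample of M1 or M3 or the 96 h sample of M1 or M3 (adjusted p up to 0.211). Id3 missed the 2-fold minimum without the 12 h sample of M3 (log2 fold change 0.88), and a single member was called higher without the 12 h sample of M3.

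Targets of the mechanosensitive coactivator YAP and its TEAD partners split at 96 h, with 4 of 21 tested members (of 22) higher and 6 lower and a median of 0.10. Without the 96 h sample of M3, 3 members were called lower. Ccn2, connective tissue growth factor on chromosome 10 from 24595442 to 24598683, was at 12529, 16372 and 21035 CPM at 12 h and 1355, 1913 and 849 CPM at 96 h. All 96 h samples lay far under the lowest 12 h sample, and the log2 fold change was -3.60 (SE 0.36, adjusted p = 0.00155). Its relative Ccn1 fell too (log2 fold change -2.01, adjusted p = 0.0174). Ankrd1, a cofactor induced by stretch, was at 3722, 3611 and 6341 CPM at 12 h and 1739.8, 2044 and 1433 CPM at 96 h (log2 fold change -1.39, adjusted p = 0.0144). Over the whole course it was highest at 12 h. Those that rose were Ccdc80 (log2 fold change 1.68, adjusted p = 0.0205), Arhgef17 (log2 fold change 2.06, adjusted p = 0.0126), Ptpn14 (log2 fold change 3.62, adjusted p = 0.0237) and Myof (log2 fold change 1.25, adjusted p = 0.0126). Without the 96 h sample of M3, Myof missed the 2-fold minimum (log2 fold change 0.98). Lats2, a kinase that restrains YAP and is also its target, was at 295, 549 and 391 CPM at 12 h and 408, 391 and 527 CPM at 96 h (adjusted p = 0.836). The summed level of the list was 3613 CPM at 0 h, 25730 CPM at 12 h and 7091 CPM at 96 h, and Ccn2, Ankrd1 and Ccn1 made up most of the sum at 12 h.

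Immediate early genes, transcription factors and regulators induced within minutes by serum or stress, were lower at 96 h for 14 and higher for 1 of 23 tested members (of 27), with a median of -2.66. Klf6, a zinc finger factor of early HSC activation, was at 1148, 1849 and 2026 CPM at 12 h and 166, 234 and 132 CPM at 96 h (log2 fold change -3.24, adjusted p = 0.0013). The AP-1 subunit gene Jun was at 582, 704 and 724 CPM at 12 h and 94.8, 91 and 128 CPM at 96 h (log2 fold change -2.68, adjusted p = 0.000583). Its relative Junb was at 1262, 842 and 1022 CPM at 12 h and 199, 157 and 339 CPM at 96 h (log2 fold change -2.17, adjusted p = 0.00575). In each, every 12 h sample lay well above every 96 h sample. Egr2 and Nr4a2 had no count at 96 h. Fosl2, another AP-1 subunit, was at 353, 409.6 and 388 CPM at 12 h and 198, 223 and 203 CPM at 96 h and missed the 2-fold minimum (adjusted p = 0.00762). Ier3, an early gene that restrains cell death, went the other way. It was at 628, 239.6 and 279 CPM at 12 h and 1659, 1342 and 1711 CPM at 96 h (log2 fold change 2.04, adjusted p = 0.0129). The summed level of the list was highest before culture, with 21190 CPM at 0 h, 7734 CPM at 12 h and 2992 CPM at 96 h. Klf6 differed, with means of 194 CPM at 0 h and 1635 CPM at 12 h. Feedback regulators of the ERK pathway fell for 6 and rose for 1 of 11 tested members (of 12). Among the former were Phlda1 (log2 fold change -1.96, adjusted p = 0.000702), the phosphatase gene Dusp6 (log2 fold change -1.35, adjusted p = 0.0205) and the Sprouty gene Spry4 (log2 fold change -2.05, adjusted p = 0.0143).

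Growth factors and their receptors were lower for 5 and higher for 2 of 21 tested members (of 29). These are 23.8% and 9.5%, against 9.76% and 11.9% of all genes tested. The angiogenic factor gene Vegfa went from 98.6, 221 and 188 CPM to 47.7, 33.9 and 36 CPM (log2 fold change -2.11, adjusted p = 0.00824). The ligands of the epidermal growth factor receptor did not move together. Hbegf fell (log2 fold change -1.34, adjusted p = 0.018), whereas Btc appeared at 96 h. Ereg was at 766, 747 and 939 CPM at 12 h and 547, 526 and 673 CPM at 96 h and was not called (log2 fold change -0.49). The receptor gene Egfr itself was called lower (log2 fold change -1.07, adjusted p = 0.0149), but missed the 2-fold minimum without the 12 h sample of M2 or the 96 h sample of M1 or M2 (log2 fold change up to -0.91). Of the receptors for fibroblast growth factors, Fgfr1 fell (log2 fold change -1.74, adjusted p = 0.0141) and Fgfr2 rose (log2 fold change 2.46, adjusted p = 0.0119). Pdgfrb, the receptor for platelet-derived growth factor on HSCs, was at 176, 184 and 136 CPM at 12 h and 195, 192 and 262 CPM at 96 h (adjusted p = 0.262).

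Chemokines and inflammatory mediators, many of them targets of NF-κB, were lower at 96 h for 19 and higher for 2 of 27 tested members (of 35), with a median of -2.79. Ccl2, the monocyte chemoattractant on chromosome 11 from 82035571 to 82037453, was at 6277, 5424 and 6085 CPM at 12 h and 80.7, 92.5 and 82.1 CPM at 96 h. The samples of each group lay close together, and the log2 fold change was -6.12 (SE 0.17, adjusted p = 5.41e-05). The neutrophil chemoattractant gene Cxcl1 was at 9220.0, 3533 and 4671 CPM at 12 h and 27.7, 35 and 44.1 CPM at 96 h (log2 fold change -7.34, adjusted p = 0.000479). Cxcl2 was at 5262, 1950.4 and 2495 CPM at 12 h and 15.9, 3.68 and 4.11 CPM at 96 h (log2 fold change -8.75, adjusted p = 0.00118). In both, the 12 h sample of M1 lay well above the other 12 h samples. The monocyte chemoattractant gene Ccl7 (log2 fold change -6.26, adjusted p = 0.000179), the macrophage growth factor gene Csf1 (log2 fold change -1.35, adjusted p = 0.00244) and Cxcl12 (log2 fold change -1.84, adjusted p = 0.00106) fell as well. So did the adhesion molecule gene Vcam1 (log2 fold change -3.24, adjusted p = 0.000583) and the NF-κB inhibitor gene Nfkbia (log2 fold change -2.79, adjusted p = 0.0061). Ptgs2, cyclooxygenase 2, was one of the members that rose, at 5.7, 12.8 and 3.68 CPM at 12 h and 96, 239 and 169.6 CPM at 96 h (log2 fold change 4.51, adjusted p = 0.00405). The other was the chemokine gene Cxcl14, at 6.41, 8.29 and 10.9 CPM at 12 h and 70.9, 54.8 and 79.9 CPM at 96 h (log2 fold change 3.00, adjusted p = 0.00449). The list had summed to 7036 CPM at 0 h, 34270 CPM at 3 h and 27620 CPM at 12 h, and stood at 3845 CPM at 96 h.

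The promoters of Cxcl1 and Cxcl2 are shown because these genes fell most in the list and lie close to each other on chromosome 5. The 200 bases before each start are at chr5:90891045-90891244 and chr5:90903699-90903898, plus strand (RefSeq, GRCm38.p6). Capitals mark matches to the NF-κB element, here GGG, any 2 bases and TTTCC on either strand.
Cxcl1: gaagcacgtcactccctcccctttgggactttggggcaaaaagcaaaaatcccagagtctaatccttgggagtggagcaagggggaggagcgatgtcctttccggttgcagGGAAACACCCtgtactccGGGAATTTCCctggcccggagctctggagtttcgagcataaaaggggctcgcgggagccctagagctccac
Cxcl2: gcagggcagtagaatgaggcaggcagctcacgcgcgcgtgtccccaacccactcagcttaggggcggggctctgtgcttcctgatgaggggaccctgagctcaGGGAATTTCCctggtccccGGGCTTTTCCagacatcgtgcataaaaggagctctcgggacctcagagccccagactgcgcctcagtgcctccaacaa
Each holds 2 matches, and the nearest ends 61 bases before the start in Cxcl1 and 68 in Cxcl2. The element, chosen after the chemokine values were seen, was found in 8 of 26 windows of the list (30.8%), in 1.7% of the windows of all genes tested and in 1.6% of all windows. Another motif overlapped 1.8% of its matches.

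Interferon response and MHC class I genes fell for 5 and rose for 0 of 23 tested members (of 29), and 3 were called with the block. H2-D1, a heavy chain of MHC class I, was at 2264, 2325 and 2695 CPM at 12 h and 500.4, 608 and 523 CPM at 96 h (log2 fold change -2.16, adjusted p = 0.000498). H2-K1, another, was at 1090.0, 647 and 1106 CPM at 12 h and 245, 271 and 346 CPM at 96 h (log2 fold change -1.72, adjusted p = 0.00579). B2m, their common light chain, was at 1572, 2540.1 and 2912 CPM at 12 h and 626, 1214 and 589.6 CPM at 96 h (log2 fold change -1.53, adjusted p = 0.0268). H2-D1 and H2-K1 are similar in sequence, and how reads were divided between them is not given.

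The transcription factor ATF4 answers amino acid shortage and other stresses by inducing amino acid transporters, synthetic enzymes and tRNA synthetases. Of these genes, 30 of 35 tested members (of 38) were lower at 96 h and 0 higher, with a median of -2.42. Atf4 itself, on chromosome 15 from 80255184 to 80257541, was at 1446, 1198 and 1197 CPM at 12 h and 274, 199.9 and 208 CPM at 96 h (log2 fold change -2.49, adjusted p = 0.000583). Slc3a2, the heavy chain of several amino acid transporters, went from 2216, 2704 and 2392 CPM to 389, 284 and 317 CPM (log2 fold change -2.89, adjusted p = 0.000379). Its partners Slc7a5 (log2 fold change -4.59, adjusted p = 0.00035) and Slc7a11 (log2 fold change -6.90, adjusted p = 0.00267) fell as well. Asns, asparagine synthetase, stood at 229, 249.1 and 226 CPM at 12 h and 25.6, 35.8 and 21.1 CPM at 96 h (log2 fold change -3.09, adjusted p = 0.000811). The glutathione-degrading Chac1 was at 349, 506 and 329 CPM at 12 h and 23.8, 21.3 and 32.7 CPM at 96 h (log2 fold change -3.92, adjusted p = 0.000508). The pseudokinase gene Trib3 was at 105, 88.4 and 110.0 CPM at 12 h and 4.12, 0 and 3.26 CPM at 96 h (log2 fold change -5.38, adjusted p = 0.0157). No sample of 1 group reached the range of the other in these genes.

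The tRNA synthetase genes Nars (log2 fold change -2.09, adjusted p = 0.000492) and Tars (log2 fold change -2.56, adjusted p = 0.000508) fell too. Aars was at 783, 951 and 746 CPM at 12 h and 15, 181 and 384 CPM at 96 h. With this spread at 96 h it was not called (adjusted p = 0.174). Ddit4, a stress gene that restrains growth signalling, was at 215, 263 and 181 CPM at 12 h and 119.8, 159 and 192 CPM at 96 h (adjusted p = 0.222). The list rose from a sum of 1377 CPM at 0 h to 15300 CPM at 12 h and was at 3336 CPM at 96 h.

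Promoters of 3 members are shown because they carry the composite element of ATF4 and C/EBP, here TGATGNAA on either strand, in capitals. The 200 bases before the start are at chr6:7693210-7693409, minus strand, for Asns, and at chr3:50443614-50443813, minus strand, for Slc7a11. For Chac1 they are at chr2:119351042-119351241, plus strand (RefSeq, GRCm38.p6).
Asns: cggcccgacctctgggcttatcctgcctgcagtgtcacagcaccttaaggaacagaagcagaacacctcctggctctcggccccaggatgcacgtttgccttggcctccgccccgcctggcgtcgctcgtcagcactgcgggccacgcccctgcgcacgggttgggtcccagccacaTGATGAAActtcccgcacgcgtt
Slc7a11: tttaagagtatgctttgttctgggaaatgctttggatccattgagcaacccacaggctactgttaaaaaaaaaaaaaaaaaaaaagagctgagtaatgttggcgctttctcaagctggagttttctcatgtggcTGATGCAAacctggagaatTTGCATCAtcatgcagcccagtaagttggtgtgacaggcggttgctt
Chac1: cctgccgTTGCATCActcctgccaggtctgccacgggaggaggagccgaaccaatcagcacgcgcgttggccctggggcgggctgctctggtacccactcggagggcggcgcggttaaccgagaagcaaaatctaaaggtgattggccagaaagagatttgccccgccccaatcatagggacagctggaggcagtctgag
The match of Asns ends 15 bases before the start and that of Chac1 185 bases before it, and Slc7a11 holds 2 matches. The element was present in 11 of 31 windows of the list (35.5%), in 2.2% of the windows of all genes tested and in 4.0% of all windows. Among all called genes it was in 4.0% of the windows of those lower at 96 h and 1.3% of those higher. Another motif overlapped 2.3% of its matches, but none of those printed for Myl9, Cxcl1, Cxcl2 and these genes.

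The protein folding genes of the endoplasmic reticulum moved both ways, with 5 of 21 higher and 4 lower. Without the 12 h or the 96 h sample of M3, 3 were called higher. Hspa5, the chaperone BiP, fell and was at 4316, 6175 and 5849 CPM at 12 h and 2786, 1944 and 2273 CPM at 96 h (log2 fold change -1.22, adjusted p = 0.00926). The lectin chaperone gene Calr (log2 fold change 1.45, adjusted p = 0.00572) and the disulfide isomerase gene Pdia4 (log2 fold change 2.27, adjusted p = 0.00405) rose. In the heat shock list 5 of 21 rose and 2 fell. With the block, and without the 12 h sample of M2, 3 were called higher, and 2 without the 12 h sample of M3 or the 96 h sample of M1 or M3. The small heat shock protein gene Cryab, αB-crystallin, which binds intermediate filaments, was at 89.6, 169 and 125 CPM at 12 h and 2509, 2403 and 3482 CPM at 96 h. The groups were far apart (log2 fold change 4.45 (SE 0.31, adjusted p = 0.000485)). Its relative Hspb1 rose (log2 fold change 2.30, adjusted p = 0.000771), whereas the inducible Hspa1a (log2 fold change -1.67, adjusted p = 0.0285) and the mitochondrial Hspd1 (log2 fold change -1.29, adjusted p = 0.0038) fell. Hspa1a was not called without the 96 h sample of M1 (adjusted p = 0.101). None of 31 proteasome subunits was called by edgeR, with or without a minimum fold, and 1 was by DESeq2.

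Ribosome biogenesis, the making of ribosomes in the nucleolus, fell for 27 and rose for 0 of 40 genes, with a median of -2.02. The nucleolar helicase gene Ddx21 was at 2257, 1689.6 and 1754 CPM at 12 h and 581, 399 and 661 CPM at 96 h (log2 fold change -1.80, adjusted p = 0.00367). Nucleolin, Ncl, was at 2614, 2775 and 2433 CPM at 12 h and 839.6, 627 and 662 CPM at 96 h (log2 fold change -1.88, adjusted p = 0.000974). Wdr43, a part of the small subunit processome, was at 1732, 1754 and 1622 CPM at 12 h and 218, 147 and 189 CPM at 96 h (log2 fold change -3.20, adjusted p = 0.000344). For all 3 the groups were far apart. None of 79 cytosolic ribosomal protein genes was called by edgeR or DESeq2. Their median was 0.07 with fitted changes no lower than -0.78, and without a minimum fold 9 were called higher and 7 lower. Over the whole course, the mean of Ncl rose from 329 CPM at 0 h to 1119 CPM at 3 h and 2545 CPM at 12 h. It was still 2059 CPM at 24 h and ended at 698 CPM.

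In the mitosis list, 21 of 30 members were tested, of which 16 were called higher and 0 lower, and 10 were with the block. At 12 h, 14 of the 21 had fewer than 10 counts in every sample and passed the filter through the 96 h group alone, so that this count is a description. Top2a, topoisomerase IIα, was at 0.713, 1.04 and 0.953 CPM at 12 h and 168, 158 and 135 CPM at 96 h (log2 fold change 7.36, adjusted p = 0.000179). Cdk1, the mitotic kinase, had no count at 12 h and was at 91, 115 and 88.6 CPM at 96 h. Its 96 h level was 571-fold above the limit used for genes without a count, a ratio that is not a lower bound. Plk1 and the anaphase activator gene Cdc20, likewise without a count at 12 h, reached 47.1, 40.3 and 45.6 CPM and 38.9, 11.8 and 46.3 CPM. Hmgb2, a chromatin protein gene measured well in each group, was at 79.8, 72.5 and 53.7 CPM at 12 h and 82.7, 89 and 80.9 CPM at 96 h and was not called (adjusted p = 0.474). Levels of the mitosis list were low throughout the first day, with sums of 94.5 to 184 CPM from 0 h to 24 h and 786 CPM at 96 h.

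In the DNA replication list, 25 of 30 members were tested, of which 11 rose and 0 fell. Of the 25, 8 had fewer than 10 counts in every 12 h sample. These passed the filter through the 96 h group alone, so that the count of calls is a description. DESeq2 called 18 members higher. Mcm7, a subunit of the replicative helicase, was at 21.4, 4.32 and 13.2 CPM at 12 h and 149, 121 and 149 CPM at 96 h (log2 fold change 3.43, adjusted p = 0.00824). The sliding clamp gene Pcna was at 91, 175 and 160.3 CPM at 12 h and 82.7, 155 and 53.5 CPM at 96 h (adjusted p = 0.469). Its groups overlapped.

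Mitotic promoters are shown for Cdk1, Cdc20 and Top2a because they hold the CHR element TTTGAA and the CCAAT box, which mark genes that the DREAM complex represses outside of division. The 200 bases before each start are at chr10:69352913-69353112, chr4:118437344-118437543 and chr11:99024190-99024389, respectively, each on the minus strand (RefSeq, GRCm38.p6). Capitals mark either motif on either strand.
Cdk1: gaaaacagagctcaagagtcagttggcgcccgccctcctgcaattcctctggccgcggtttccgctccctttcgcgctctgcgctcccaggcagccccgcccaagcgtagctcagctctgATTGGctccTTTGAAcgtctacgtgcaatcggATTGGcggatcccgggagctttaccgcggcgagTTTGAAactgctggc
Cdc20: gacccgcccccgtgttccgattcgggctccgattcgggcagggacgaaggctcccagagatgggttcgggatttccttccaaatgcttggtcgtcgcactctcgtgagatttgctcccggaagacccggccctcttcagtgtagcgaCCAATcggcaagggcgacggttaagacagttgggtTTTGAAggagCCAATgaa
Top2a: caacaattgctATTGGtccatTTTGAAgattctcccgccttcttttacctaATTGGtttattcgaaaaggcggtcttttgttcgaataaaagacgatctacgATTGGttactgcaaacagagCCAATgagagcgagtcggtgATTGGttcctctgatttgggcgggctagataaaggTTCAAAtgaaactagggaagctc
CHR letters were in 12 of 17 windows of the mitosis list (70.6%) against 11.4% of the windows of all genes tested and 17.9% of all windows. CCAAT boxes were in 14 (82.4%) against 36.8% and 37.4%, and were about as frequent in other lists, with 88.9% of windows for the endoplasmic reticulum chaperones, 78.9% for cholesterol synthesis and 73.3% for the circadian clock. No match printed here overlapped another motif searched, whereas 2.0% of all CHR and 1.2% of all CCAAT matches did. Over all genes higher at 96 h, CHR letters were in 10.6% of windows and CCAAT boxes in 39.6%.

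Inhibitors of the cell cycle and targets of p53 rose for 6 and fell for 2 of 17 tested members (of 22). Without the 96 h sample of M1 or that of M3, 3 members were called higher. Cdkn1a, which encodes the inhibitor p21, was at 819, 453 and 430.0 CPM at 12 h and 1495, 1428 and 1631 CPM at 96 h (log2 fold change 1.42, adjusted p = 0.0134). At 12 h the sample of M1 stood above the others, yet below all 96 h samples. The p53 targets Ccng1 (log2 fold change 2.84, adjusted p = 0.00124) and Phlda3 (log2 fold change 2.78, adjusted p = 0.00169) rose. Mean levels at 24 h (2 samples) and 96 h, scaled over all 19 samples, were 1781 and 1494 CPM for Cdkn1a. They were 284 and 317 CPM for Ccng1 and 222 and 156 CPM for Phlda3. The summed level of the list was 3219 CPM at 12 h, 4153 CPM at 24 h and 3211 CPM at 96 h. The stress cytokine gene Gdf15 fell and was at 530.0, 482 and 593 CPM at 12 h and 34.7, 38.9 and 34.6 CPM at 96 h (log2 fold change -3.89, adjusted p = 0.000179). Plk2, a kinase gene induced by p53, fell too (log2 fold change -2.96, adjusted p = 0.0013). Mdm2, the ubiquitin ligase of p53, was at 217, 187 and 241 CPM at 12 h and 167, 244 and 248 CPM at 96 h (adjusted p = 0.948).

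**Figure D4:**
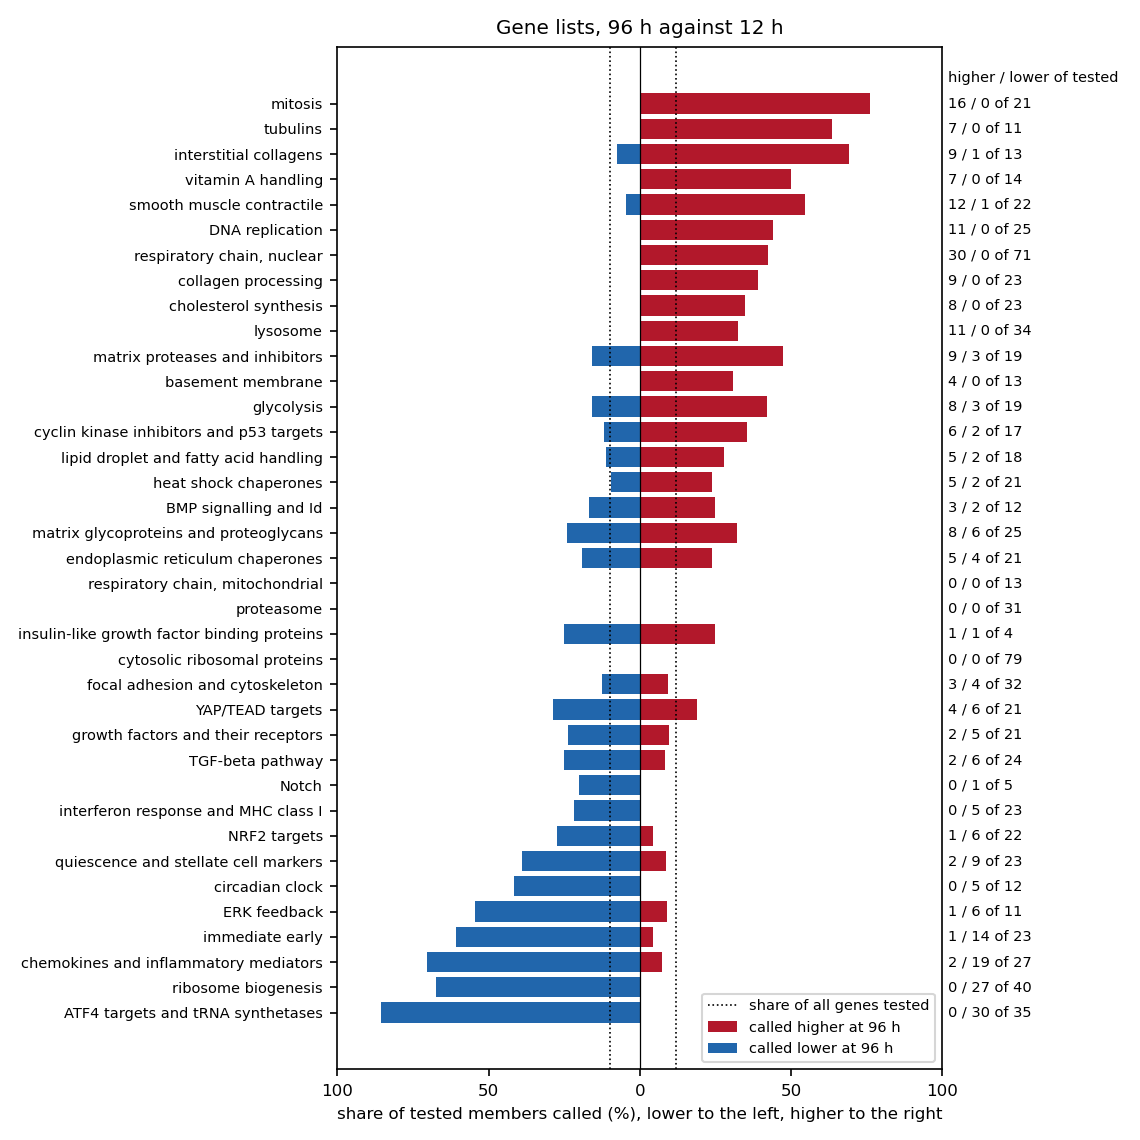
Share of the tested members of each gene list called lower (blue, to the left) or higher (red, to the right) at 96 h, with the numbers at the right edge; dotted lines mark the shares among all genes tested, 9.76% and 11.9%. The ATF4, chemokine, ribosome biogenesis and immediate early lists reach far to the left, and interstitial collagens and tubulins far to the right. The mitosis bar is a description, since 14 of its 21 members had fewer than 10 counts in every 12 h sample. So are the bars of DNA replication, with 8 of 25 such members, and cholesterol synthesis, with 5 of 23.

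In glycolysis 8 of 19 tested genes (of 21) rose and 3 fell, with a median of 2.39. Ldha, lactate dehydrogenase A, was at 100.3, 84.9 and 114 CPM at 12 h and 573, 639.8 and 545 CPM at 96 h (log2 fold change 2.55, adjusted p = 0.000485). Pkm, pyruvate kinase, was at 241, 148 and 117 CPM at 12 h and 1123, 453 and 1338 CPM at 96 h, with M2 the lowest at 96 h (log2 fold change 2.53, adjusted p = 0.0119). Gapdh was at 111, 69.9 and 71.5 CPM at 12 h and 394, 672 and 469 CPM at 96 h (log2 fold change 2.60, adjusted p = 0.00225). Each of these has processed pseudogenes in the genome, and how shared reads were counted is not given. The entry steps differed by gene. The hexokinase gene Hk1 rose (log2 fold change 2.47, adjusted p = 0.00244), while Hk2 fell and was at 809, 615 and 559 CPM at 12 h and 167, 123 and 148 CPM at 96 h (log2 fold change -2.18, adjusted p = 0.00124). The glucose transporter gene Slc2a1 fell as well (log2 fold change -1.54, adjusted p = 0.0291).

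Nuclear genes of the respiratory chain rose for 30 and fell for 0 of 71, with a median of 1.01. Among them were the cytochrome oxidase genes Cox6a1 (log2 fold change 1.49, adjusted p = 0.0125) and Cox8a (log2 fold change 1.21, adjusted p = 0.0229) and the ATP synthase gene Atp5j2 (log2 fold change 2.43, adjusted p = 0.00124). None of the 13 mitochondrially encoded genes was called by edgeR or DESeq2 (median 0.41), and 3 were by edgeR without a minimum fold. Cholesterol synthesis rose for 8 and fell for 0 of 23 tested genes (of 25), of which 5 had fewer than 10 counts in every 12 h sample. These 5 passed the filter through the 96 h group alone, so that the count of calls is a description. With the block, and without the 96 h sample of M1 or that of M3, 5 were called. The farnesyl diphosphate synthase gene Fdps was at 9.27, 18 and 11.3 CPM at 12 h and 65.4, 79.7 and 56.1 CPM at 96 h (log2 fold change 2.38, adjusted p = 0.0102).

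Targets of the oxidative stress factor NRF2 fell for 6 and rose for 1 of 22 tested members (of 23). Hmox1, heme oxygenase, was at 1886, 1849.6 and 1858 CPM at 12 h and 254, 304 and 201 CPM at 96 h (log2 fold change -2.88, adjusted p = 0.000425). Thioredoxin reductase, Txnrd1, was at 1301, 1731 and 1458 CPM at 12 h and 344, 299 and 316 CPM at 96 h (log2 fold change -2.23, adjusted p = 0.00055). In both the groups were far apart. The iron storage gene Fth1 was at 1840.1, 1992 and 2237 CPM at 12 h and 1295, 2467 and 1968 CPM at 96 h (adjusted p = 0.863). Lysosomal genes rose for 11 and fell for 0 of 34 tested members (of 37), with a median of 0.99. Without the 96 h sample of M3, 7 were called. The membrane protein gene Scarb2 was at 157, 103 and 86.3 CPM at 12 h and 563, 613 and 521 CPM at 96 h (log2 fold change 2.29, adjusted p = 0.0021), and the tetraspanin gene Cd63 was called higher (log2 fold change 1.00, adjusted p = 0.00475). Its change was close to the 2-fold minimum, and the call was lost in 6 of 17 alternatives, among them the block and the fits without the 12 h sample of M3 or the 96 h sample of M1 or M3 (log2 fold change from 0.96). Their summed level had been 7499 CPM at 0 h, 3809 CPM at 12 h and 6733 CPM at 96 h.

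Markers of quiescence and of the stellate cell, taken as 1 list, were lower for 9 and higher for 2 of 23 tested members (of 25). With the block, 8 were lower and 1 higher. Rgs5, a regulator of G-protein signalling in pericytes, was at 674, 784 and 866 CPM at 12 h and 50.05, 41 and 64.1 CPM at 96 h (log2 fold change -3.90, adjusted p = 0.000344). The extracellular matrix gene Ecm1 was at 1218, 1101 and 944 CPM at 12 h and 143, 136 and 113 CPM at 96 h (log2 fold change -3.05, adjusted p = 0.000344). The neurotrimin gene Ntm was at 124, 130.0 and 99.8 CPM at 12 h and 11.8, 20.7 and 17.5 CPM at 96 h (log2 fold change -2.82, adjusted p = 0.00217). In all of them the groups were far apart. Ngfr, the low-affinity neurotrophin receptor gene, was at 17.8, 16.7 and 8.31 CPM at 12 h and had no count at 96 h. It was not called with the block (adjusted p = 0.142). Gfap had no count in any of the 6 samples. Reln, at 366, 531 and 509.7 CPM at 12 h and 261, 194 and 239 CPM at 96 h, was lower by little more than the 2-fold minimum (log2 fold change -1.02, adjusted p = 0.0157), and the call was lost in 7 of 17 alternatives, among them without the 12 h sample of M2 or M3 or the 96 h sample of M2 (log2 fold change up to -0.91). Hgf, the hepatocyte growth factor gene, was at 153, 180 and 151 CPM at 12 h and 113, 107 and 133 CPM at 96 h (adjusted p = 0.141). In the other direction went Hand2, a transcription factor gene of the HSC lineage, at 0, 3.97 and 0 CPM at 12 h and 123, 129.9 and 156 CPM at 96 h (log2 fold change 6.64, adjusted p = 0.0169). Its 12 h counts came from M2 alone, and its mean had been 537 CPM at 0 h. Summed over the 25 markers, levels were 3430 to 3750 CPM at 12 h and 1280 to 1490 CPM at 96 h. Scaled over all 19 samples, the tested members summed to 26960 CPM at 0 h, 3494 CPM at 12 h, 1280 CPM at 24 h and 1406 CPM at 96 h. Most of the decrease from 0 h thus came before 12 h, and the sum at 96 h was no lower than at 24 h.

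Vitamin A handling, the trade of the quiescent cell, was higher at 96 h for 7 and lower for 0 of 14 tested genes (of 21), with a median of 1.72. With DESeq2, 2 members were called lower. The retinaldehyde dehydrogenase gene Aldh1a1 was at 69.8, 73.9 and 37.2 CPM at 12 h and 712, 851 and 923 CPM at 96 h (log2 fold change 3.78, adjusted p = 0.000771). The β-carotene oxygenase gene Bco1 was at 66.8, 113 and 150.3 CPM at 12 h and 463, 797 and 561 CPM at 96 h (log2 fold change 2.46, adjusted p = 0.00505). All 96 h samples of these genes lay above all 12 h samples. Retinoic acid itself is known to induce Cyp26b1, the enzyme that degrades it, and the receptor gene Rarb. Cyp26b1 was at 0.475, 1.38 and 1.91 CPM at 12 h and 135, 84.4 and 150 CPM at 96 h (log2 fold change 6.54, adjusted p = 0.000922). Rarb, without a count at 12 h, reached 24.7, 32.5 and 37.5 CPM (184-fold above the limit of 3 counts). In the list of lipid droplets and fatty acids, 5 of 18 tested members (of 32) rose and 2 fell. Whichever 96 h sample was left out, 3 were called higher, and with the block 1 was called lower. The lipid droplet coat gene Plin2 rose (log2 fold change 2.39, adjusted p = 0.0116) and the fatty acid activating gene Acsl4 fell (log2 fold change -1.64, adjusted p = 0.0018).

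Activated HSCs (aHSCs) had been described by the study with a fibrogenic aHSC program of 173 genes, chosen on HSCs from chronically injured mice not analysed here. Its initiatory aHSC program of 72 genes was chosen partly on the 6 h and 12 h samples of these cultures and is therefore not independent of the 12 h levels. Of the fibrogenic program, 123 genes were tested, of which 44 were higher and 24 lower at 96 h, with a median of 0.63. Of the initiatory program all 72 were tested, of which 7 were higher and 35 lower, with a median of -1.26. Without the 96 h sample of M3, 4 were higher. The 39 genes shared by the programs had 4 members higher and 18 lower, with a median of -1.20. For the 84 tested genes (of 134) of the fibrogenic program alone, 40 were higher (47.6%) and 6 lower (7.1%), with a median of 1.80. Among all genes tested these shares were 11.9% and 9.76%. Some members called higher had few or no counts at 12 h and passed the filter through the 96 h group alone. Gprc5b had no count at 12 h, and Adam12 had means of 0.309 CPM at 12 h and 16.6 CPM at 96 h, scaled over all 19 samples. The counts and medians of this program, with or without the shared genes, are therefore a description. Leaving out the shared genes uses that same choice on the 6 h and 12 h samples, so that this split is not independent of the 12 h levels either. For the 33 of the initiatory program alone, 3 were higher (1 with the block) and 17 lower.

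Of the fibrogenic program alone, the calcium-binding protein gene S100a6 rose and was at 61.5, 64.4 and 76.5 CPM at 12 h and 2237, 3050.3 and 2835 CPM at 96 h (log2 fold change 5.32, adjusted p = 0.000166). The galectin gene Lgals1 was at 80.1, 130.2 and 133 CPM at 12 h and 1383, 2225 and 1493 CPM at 96 h (log2 fold change 3.89, adjusted p = 0.000671), and the cornified envelope gene Sprr1a rose too (log2 fold change 9.05, adjusted p = 0.00146). The mitochondrial folate enzyme gene Mthfd2 (log2 fold change -3.39, adjusted p = 0.000344) and Ccl7, members of both programs, fell, whereas the LIM domain gene Fhl2 (log2 fold change 3.85, adjusted p = 0.00508) and Mmp3, which also belong to both, rose. In the initiatory program alone, the scaffold gene Akap12 fell from 5076, 5476 and 5005 CPM to 287, 387 and 372 CPM (log2 fold change -3.89, adjusted p = 0.000222). Not all shared genes were called. Tnfrsf12a, the receptor of TWEAK, was at 490.1, 465 and 581 CPM at 12 h and 321, 365 and 359 CPM at 96 h and missed the 2-fold minimum (log2 fold change -0.56). Actn1, α-actinin, was at 2444, 3232 and 3359 CPM at 12 h and 3008, 3770.4 and 3246 CPM at 96 h (adjusted p = 0.637).

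**Figure D5:**
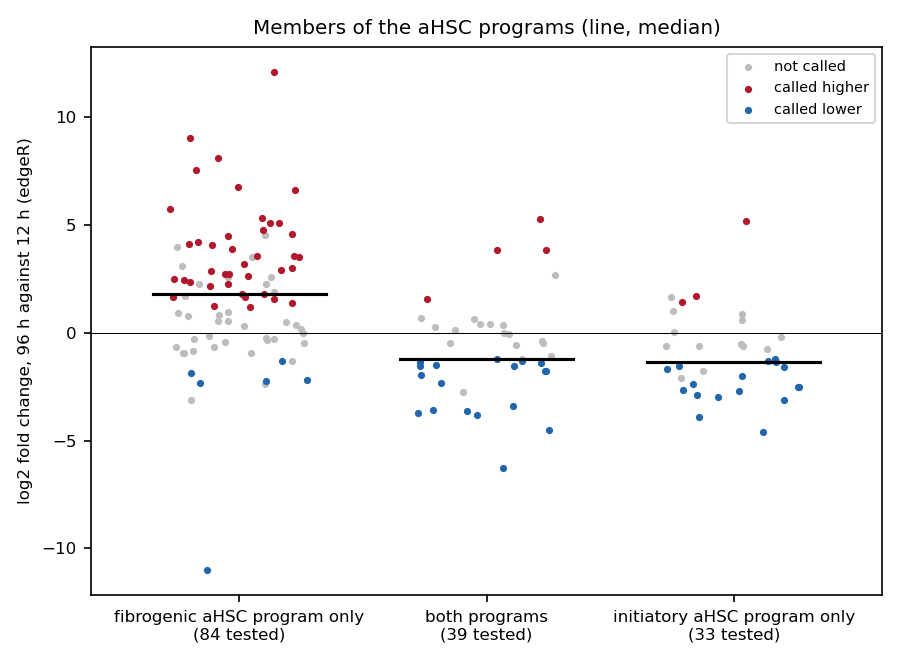
Log2 fold change from 12 h to 96 h (edgeR) of each tested member of the fibrogenic program alone (84 genes), of both programs (39) and of the initiatory program alone (33), with points coloured by call and a line at the median. Medians were 1.80, -1.20 and -1.36, and red points prevail in the first group and blue points in the others. The split rests on a program chosen partly on the 6 h and 12 h samples. Some members of the first group passed the filter through the 96 h group alone.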

How the data were processed

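HSCs were sorted from liver on vitamin A fluorescence and cultured for 12 h or 96 h. The authors sequenced 3′ tags (QuantSeq, single-end) from total RNA, trimmed the reads, aligned them to GRCm38.p6 with STAR, used StringTie and deposited raw counts per gene without normalization; the settings, the annotation release and strand handling of the counting are not given in the sources used here. Whether a sample came from 1 mouse or a pool is not given either.

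Counts of the 6 samples were filtered with filterByExpr, scaled by TMM and compared with edgeR 4.0.16 (glmQLFit and glmQLFTest, limma 3.58.1, R 4.3.3), with groups taken from the labels and no covariate. Calls needed an adjusted p (Benjamini-Hochberg over all genes tested) under 0.1 and a fold change over 2. Standard errors were derived as the log2 fold change over the square root of F. The test was checked on simulated data. DESeq2 1.42.0, other scalings, filters and thresholds, the isolation date, the replicate block, all 19 samples, thinning to 3389083 counts and leaving out each sample were tried. All columns of the count table belonged to a labelled sample (0 unmapped). Totals of 3389083 to 7690892 counts per sample limit the precision for low genes.

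The gene lists and their members were chosen with earlier results of these data known. Named genes were those of a panel of marker genes chosen for this comparison, the 10 largest increases and the 10 largest decreases (calls without overlap, mean level from 20 CPM). Added to these from each list were, in each direction, up to 4 called members with the highest level and up to 2 with the largest change, and up to 3 members not called. Outside of this rule, Myl9, Tpm2, Cnn1, Des, Col1a2, Vcam1, Nfkbia, Asns, Chac1 and Cdc20 were named after their values had been seen. Gene positions are those of GENCODE vM21 and promoter windows those of RefSeq, both on GRCm38; 9751 windows belonged to genes tested and 32851 to all genes. Gene symbols without a window are given by name only.

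The numbers M1, M2 and M3 and the isolation dates in the labels mark shared isolations, so the block was used as a paired alternative. Deviations from the group means correlated with r of 0.0735 for M1, 0.0347 for M2 and -0.00574 for M3. The methods call the samples of a time independent repeats, each made of technical repeats, but do not say whether these came from separate mice, so that p-values measure the spread between these samples. Some genes that the rule named are not reported here.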

Additional observations from a re-analysis of the deposited data

How the results depend on the processing

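With the replicate block, calls fell from 2368 to 1552 and those higher at 96 h from 1301 to 797, with 755 lower; the cause was not tested. Of 228 named genes that were called, 30 lost their call with the block, and of all 351 named genes 0 changed direction as called values in any of the 17 alternatives. Leaving out 1 sample at a time gave 1775 to 2553 calls, 939 to 1536 higher and 818 to 1018 lower, with the fewest without the 96 h sample of M3. The other alternatives gave 1882 calls (adjusted p under 0.05) to 2918 (DESeq2, of which 58.1% were higher, against 54.9%). Without a filter on low counts, 2041 of 19429 genes were called and the median of all genes moved to 0.254. In 171 of the 228 named genes the call held in every alternative, and 45 of 123 named genes without a call gained one in at least 1. Samples of a group numbered 3, and counting errors are large for genes near 3 counts (0.39 to 0.885 CPM). Genes without a count in a group have no fold change, only a ratio to a limit of 3 counts. With the isolation date as a covariate, 2312 genes were called, among them 93.1% of the 2368.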

Other observations

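Some further gene groups were described in these samples. Of 12 tested genes of the circadian clock, 5 were lower at 96 h and 0 higher, of which 3 were called with the replicate block and 3 without the 12 h sample of M2 or the 96 h sample of M1 (edgeR, Benjamini-Hochberg adjustment). Nr1d1, a repressor of the clock, was at 119, 119 and 67.4 CPM at 12 h and 25.3, 20.7 and 13.9 CPM at 96 h (log2 fold change -2.35, adjusted p = 0.00767).

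Most Notch genes were too low to be tested (5 of 14 were). The ligand gene Jag1 was at 101, 132 and 129 CPM at 12 h and 13, 8.71 and 17.7 CPM at 96 h (log2 fold change -3.20, adjusted p = 0.00209) and was the single member called. Among the insulin-like growth factor binding proteins, Igfbp5 rose and Igfbp3 fell from 50.1, 82.5 and 137 CPM to 44.2, 18.8 and 20.7 CPM (log2 fold change -1.69, adjusted p = 0.0644), a call that was lost with the block (adjusted p = 0.171) and without the 12 h sample of M2 or M3 or the 96 h sample of M2 or M3 (adjusted p up to 0.193), whereas Igfbp7, the most abundant, was at 2376, 2557 and 3175 CPM at 12 h and 2686, 2892 and 2044 CPM at 96 h (adjusted p = 0.808).

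Thbs1 and Mapt belonged to the panel of marker genes chosen for this comparison, and neither was called. Thbs1, the gene of a matrix protein that activates latent TGF-β, was at 341, 271 and 755 CPM at 12 h and 155, 285 and 143 CPM at 96 h (adjusted p = 0.116). Mapt, tau, was at 24.2, 28.1 and 16.5 CPM at 12 h and 14.1, 23 and 8.06 CPM at 96 h (adjusted p = 0.585).

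E-boxes (CACGTG) were found in 8.3% of the promoter windows of genes higher at 96 h and in 13.5% of those lower, against 10.4% for all genes tested and 7.2% of all windows. Letters of the TEAD element (GGAATG) were in 7 of 16 windows (43.8%) of the YAP and TEAD target list and in 12.2% of the windows of all genes tested and 14.7% of all windows. These shares were not tested, and overlaps with another motif made up 6.9% of the E-box matches.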
